A study of Mus musculus with 21 samples.

Results

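The subject here is a group of 10 circadian clock regulators in 3T3-L1 adipocytes: the period genes Per1, Per2 and Per3, the cryptochromes Cry1 and Cry2, the REV-ERB genes Nr1d1 and Nr1d2, and the transcription factor genes Dbp, Nfil3 and Bhlhe40. They were found by their gene symbols in the array's annotation, and each is represented by the probe set with the highest mean over all arrays. All 10 were found among 18194 genes with a probe set of their own, through 19 probe sets in all. Dim genes were left out of the tests: a gene needed a log2 value above 5.34, the middle of all deposited values, on 3 or more arrays. This left 12156 genes, and all 10 regulators lay above that level on 21 of 21 arrays.

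The study followed mouse 3T3-L1 adipocytes on the way to insulin resistance with Affymetrix arrays, 3 biological replicates in each of 7 groups. 3T3-L1 is a clonal preadipocyte line derived from mouse embryo fibroblasts, and here it had been differentiated for 14 days. The groups were dexamethasone (Dex, a synthetic glucocorticoid, at 20 nM) for 2 h, 24 h or 6 d, the inflammatory cytokine tumour necrosis factor alpha (TNF) over the same 3 durations, and a control at 0 h with neither agent. Treatments were started at different times ahead of the harvest. The labels name no TNF dose and no vehicle, and they do not say how the medium was handled up to 6 d. The age of the cultures at harvest is not stated either. Values are log2 expression, so a difference of 1 is a doubling of the signal. Values of different probe sets are not set against each other, since each probe set has its own response.

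The circadian clock of mammalian cells is a feedback loop in which the activators CLOCK and BMAL1 (the product of Arntl) bind E-box sequences and switch on the period, cryptochrome and REV-ERB genes. The PER and CRY proteins then repress CLOCK and BMAL1, and the REV-ERB proteins repress Arntl. DBP activates and NFIL3 represses genes with a D-box, while BHLHE40 represses genes with an E-box. Adipocytes hold such a clock, and a pulse of glucocorticoid is a common means of setting the phase of clocks in cultured cells.

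Promoter sequence was available for 8 of the 10 regulators, 9 promoters in all because Per1 had 2. The 250 bases before each start, from the RefSeq table of build GRCm38.p6, were searched on both strands. The motifs were the E-box CACGTG, the D-box as TTATGTAA or TTACGTAA, the cyclic AMP response element TGACGTCA, the ROR element that REV-ERB proteins also bind, and the glucocorticoid response element. Each motif was counted on its own, whether or not it overlapped another. E-boxes stood in 2 of the 9 promoters, in Per1 and Cry1, and in 6.02% of all 32851 promoters of that length. The D-box form TTATGTAA stood in 1 of the 9, at Per3, where it occurred at 2 positions, and in 0.819% of all promoters. The remaining motifs had 0 matches among the 9, and they occurred in 0.113% (TTACGTAA), 0.493% (ROR element), 0.387% (glucocorticoid response element) and 1.55% (cyclic AMP response element) of all promoters. The matches are shown because these 3 genes carry results below, each with 30 bases on either side and with the motif in capitals.
Per1 (chr11:69098753-69098818, plus strand, bases -196 to -131 from the start, inside the span of a longer annotated Per1 transcript): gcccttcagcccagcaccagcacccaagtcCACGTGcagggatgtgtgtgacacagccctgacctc
Cry1 (chr10:85185079-85185144, minus strand, bases -90 to -25): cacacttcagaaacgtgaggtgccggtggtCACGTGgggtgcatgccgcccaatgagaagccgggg
Per3 (chr4:151044786-151044900, minus strand, bases -235 to -121): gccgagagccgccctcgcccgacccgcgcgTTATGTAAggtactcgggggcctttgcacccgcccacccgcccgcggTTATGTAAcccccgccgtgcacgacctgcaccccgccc

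One array stood apart on measures that use no comparison between treatments, and it was known from earlier results to do so. In TNF 6 d replicate 2 the SD of all values was 2.04, against 2.44 to 2.51 on the other 20 arrays. Its control probe sets for Actb and Gapdh read 2.00 log2 units higher at the 3' than at the 5' end, against 0.021 to 0.78 elsewhere, a gap that widens as RNA is degraded or shortened. Its highest correlation with another array of its group was 0.898, against at least 0.988 for the others. Results below come from all 21 arrays unless stated. Many are also given from the 20 arrays without this one (the 20-array fit). Where a call was lost without another single array, that fit still held TNF 6 d replicate 2. TNF 2 h replicate 2, TNF 24 h replicate 3 and Dex 6 d replicate 2 had 3' to 5' gaps of 0.74, 0.68 and 0.78. Known targets of each agent moved as follows. After Dex the glucocorticoid target Fkbp5 was higher than control by 3.74, 4.07 and 4.02 at 2 h, 24 h and 6 d. After TNF the chemokine gene Ccl2 was higher by 6.44, 6.77 and 4.33 at those times, the last being 5.52 in the 20-array fit. The other Dex check, Tsc22d3, was higher after Dex by 2.00, 2.20 and 2.41. The other TNF check, Nfkbia, was higher after TNF by 2.44, 1.95 and 0.89, but also after Dex by 1.56, 1.02 and 1.27. In the 20-array fit Fkbp5 was also higher after 24 h and 6 d of TNF, by 0.45 and 0.65. Marker genes were read from the 20 arrays, where all 8 measured adipocyte markers averaged above 5.34 in every group. Their mean per array was 12.28 to 12.41, 11.74 to 12.29 and 12.17 to 12.26 after 2 h, 24 h and 6 d of TNF and 12.55 to 12.94 over the Dex groups, against 12.84 to 12.9 in control. Of 7 preadipocyte or fibroblast markers 6 did so, and their mean per array lay at 8.47 to 8.79 after 6 d of Dex and 10.02 to 10.3 after 6 d of TNF, against 9.57 to 9.94 in control. Of 6 macrophage markers 1 to 3 did so, with a mean per array of 5.09 to 5.37 after 24 h of TNF, where Cd68 averaged 6.78 and Csf1r 6.96, against 4.74 to 4.92, 5.21 and 6.45 in control. Adgre1, Itgam and Ptprc lay below 5.34 in every group. The part of these marker differences in the results on the clock genes was not tested. In such bulk samples, fewer cells of a type and less RNA per cell cannot be told apart.

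After 2 h of Dex several clock regulators differed from the 0 h control, most of all Nfil3 and Per1 upward and Bhlhe40 downward. Per1 was still raised at 24 h and 6 d. The part of medium handling and of culture time in the differences from control was not tested. The calls against control under TNF were all downward: Dbp was lower at 2 h, Per2 at 24 h, and Per3, Cry2, Nr1d1, Bhlhe40 and, only with all arrays, Nfil3 at 6 d. A gene was called when its limma p, adjusted over all 12156 genes by Benjamini and Hochberg, was below 0.05. After 2 h of Dex 3 of the 10 regulators were called against control, where 2.48% of all tested genes were called. Without TNF 6 d replicate 2 it was 5 of 10, where 7.12% were called. After 24 h of Dex 3 were called beside 4.18% of all genes, and 4 beside 13.2% in the 20-array fit. After 6 d of Dex it was 3 beside 8.3%, and 5 beside 24.0% in the 20-array fit. After 2 h of TNF 1 regulator was called beside 3.82% of all genes, and 1 beside 10.7% in the 20-array fit. After 24 h of TNF it was 1 beside 8.69%, and 3 beside 25.6% in the 20-array fit. After 6 d of TNF 5 were called beside 15.2%, all of them lower, where 10.7% of all genes were called lower. The 20-array fit gave 4 beside 20.5%, all lower, where 9.93% of all genes were. The share of regulators called was close to that of all genes for TNF at 24 h and, in the 20-array fit, for TNF at 2 h.

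The median change of the 10 regulators was -0.01, -0.04 and 0.06 after 2 h, 24 h and 6 d of Dex, against medians over all tested genes of -0.02, -0.0025 and -0.02. After TNF the regulators' medians were -0.17, -0.15 and -0.77 at the same times, against -0.05, -0.03 and -0.23 over all genes. Without TNF 6 d replicate 2 the last pair was -0.40 and -0.05. The 6 comparisons share the 3 control arrays, so their values stand side by side and are not independent.

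**Figure D1:**
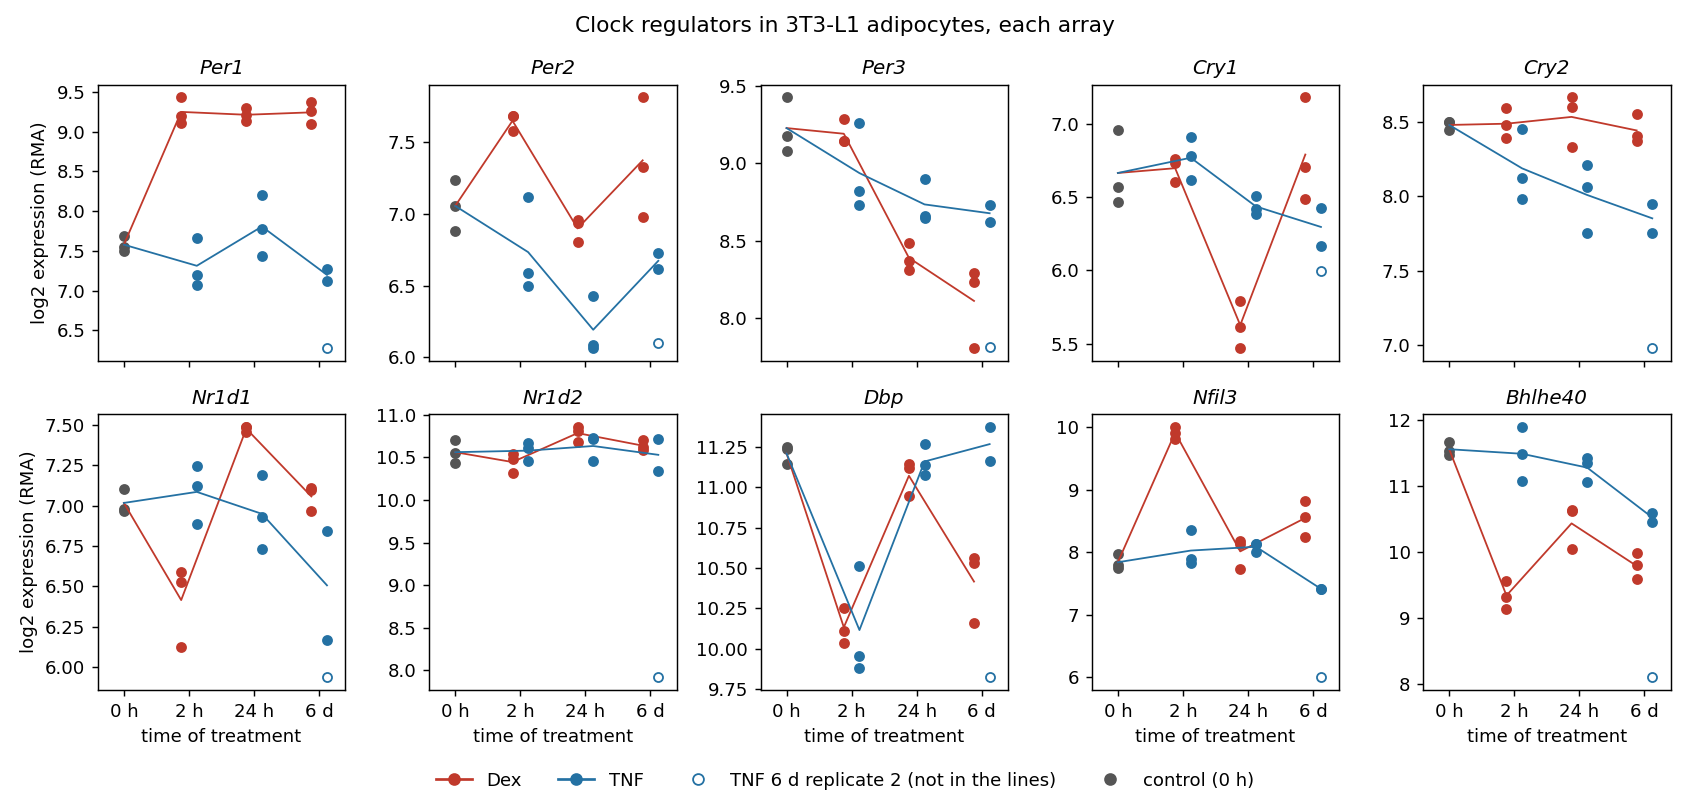
Log2 expression (vertical axes, a separate scale for each gene) of the 10 clock regulators on each array against treatment time (0 h, 2 h, 24 h, 6 d), with a point for each array, lines through group means, Dex in red, TNF in blue and control in grey. Per1 lies at 9.10 to 9.43 on all Dex arrays, above 7.49 to 7.68 in control, and the open circle of TNF 6 d replicate 2, left out of the lines, is the lowest of its group in all 10 panels.

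Per1, which encodes a repressor of CLOCK and BMAL1 and carries the E-box shown above, was higher at all 3 Dex times and was not called against control under TNF. Its probe set (1449851_at) read 9.43, 9.11 and 9.20 after 2 h of Dex, against 7.49, 7.68 and 7.55 in control. At 24 h of Dex it read 9.20, 9.30 and 9.13, and at 6 d 9.10, 9.25 and 9.37. All Dex arrays lay above all control arrays, and the 3 Dex groups overlapped with each other. The change was 1.67 ± 0.24 (SE, n = 3 arrays a group), a 3.18-fold rise, at 2 h (limma adjusted p = 0.000197). It was 1.63 at 24 h (adjusted p = 0.000223) and 1.66 at 6 d (adjusted p = 9.69e-05), and each of these calls held whichever array was left out. Between times no difference of Per1 was called under Dex.

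Under TNF Per1 read 7.08, 7.66 and 7.20 at 2 h, 7.44, 7.78 and 8.20 at 24 h, and 7.28, 6.28 and 7.12 at 6 d. These groups lay around the control values, with the 6 d arrays below them. None of the changes against control was called: -0.27 at 2 h, 0.23 at 24 h and -0.69 at 6 d, the last with a limma adjusted p of 0.0569. In the 20-array fit the 6 d change was -0.38 (adjusted p = 0.17). Per1 was lower after 6 d than after 24 h of TNF, by -0.91 (adjusted p = 0.0285) and by -0.61 in the 20-array fit (adjusted p = 0.0459). That call was lost without TNF 24 h replicate 2 or 3, with an adjusted p up to 0.146.

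Per2, the partner of Per1 in the repressor complex, moved less under Dex and was lower under TNF. Its probe set (1417602_at) read 7.58, 7.68 and 7.68 after 2 h of Dex, against 6.88, 7.05 and 7.23 in control. Those groups did not overlap, and the difference of 0.59 was not called (limma adjusted p = 0.264, and 0.0505 in the 20-array fit). Dex at 24 h read 6.93, 6.96 and 6.80, and at 6 d 7.33, 7.81 and 6.98, both overlapping control. After 24 h of TNF Per2 read 6.09, 6.42 and 6.07, all below every control array. That fall was -0.86 ± 0.21 (limma adjusted p = 0.0123, and 0.00111 in the 20-array fit). It was lost without control replicate 3 or TNF 24 h replicate 1 or 3, with an adjusted p up to 0.0648. At 2 h of TNF Per2 read 6.59, 7.11 and 6.50, and at 6 d 6.73, 6.10 and 6.62. The changes at those times were -0.32 and -0.57 (adjusted p = 0.815 and 0.0712), and the second was -0.38 in the 20-array fit. The other Per2 probe sets lay above 5.34 on 18 and 5 of the 21 arrays, and at 24 h of TNF they gave -0.21 (1457350_at) and -0.40 (1417603_at).

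Per3, the period gene that the loop can do without and whose promoter held the pair of D-boxes above, fell late under both agents. Its probe set (1421087_at) read 8.49, 8.31 and 8.37 after 24 h and 7.80, 8.23 and 8.29 after 6 d of Dex, against 9.08, 9.18 and 9.43 in control. At 2 h of Dex it read 9.14, 9.15 and 9.28, inside the control range. The 24 h and 6 d arrays all lay below every control array. The change was -0.84 ± 0.22 at 24 h (limma adjusted p = 0.0332) and -1.12 ± 0.22 at 6 d, a 2.17-fold fall (limma adjusted p = 0.00215). The 24 h call was lost without any of the 3 control or 3 Dex 24 h arrays, with an adjusted p up to 0.152, while the 6 d call held whichever array was left out.

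TNF gave Per3 values of 8.82, 9.26 and 8.73 at 2 h, 8.66, 8.90 and 8.64 at 24 h, and 8.73, 7.81 and 8.62 at 6 d. From 24 h these lay below every control array. The changes were -0.29 at 2 h (limma adjusted p = 0.924), -0.49 at 24 h (0.219, and 0.0169 in the 20-array fit) and -0.84 at 6 d (0.0151). Without TNF 6 d replicate 2 the 6 d fall was -0.55 (adjusted p = 0.0208), and without control replicate 3 it was not called (0.071). A second Per3 probe set above 5.34 on 21 arrays (1458176_at) gave smaller changes: -0.26 and -0.60 at 24 h and 6 d of Dex, and -0.45 and -0.39 at 24 h and 6 d of TNF. The other 4 Per3 probe sets were above 5.34 on 2 to 14 arrays. When all probe sets of the gene were averaged, the Per3 change was no longer called at 24 h of Dex (-0.32, adjusted p = 0.113) or at 6 d of TNF (-0.30, adjusted p = 0.0646).

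Cry1, which encodes the stronger repressor of the cryptochrome pair, fell at 24 h of Dex. Its probe set (1433733_a_at) read 5.47, 5.61 and 5.79 after 24 h of Dex, against 6.46, 6.57 and 6.96 in control. At 2 h of Dex it read 6.73, 6.76 and 6.60, and at 6 d 6.70, 7.18 and 6.48. The 24 h arrays were the 3 lowest of all 21, and the 2 h and 6 d arrays overlapped control. The fall at 24 h was -1.04 ± 0.17, or 2.05-fold (limma adjusted p = 0.000962). Cry1 was also lower at 24 h than at 2 h of Dex, by -1.07 (adjusted p = 0.000867), and higher at 6 d than at 24 h, by 1.16 (adjusted p = 0.00189). These 3 calls held whichever array was left out. Under TNF Cry1 read 6.62 to 6.91 at 2 h, 6.38 to 6.50 at 24 h and 6.00 to 6.42 at 6 d. Those changes against control were 0.10, -0.23 and -0.47, and none was called (lowest limma adjusted p = 0.0724, at 6 d). The 3 arrays of TNF at 6 d lay below every control array.

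Cry2, the other cryptochrome, was not called under Dex and was lower after 6 d of TNF. Its probe set (1426383_at) read 8.33 to 8.66 over all 9 Dex arrays, against 8.442, 8.497 and 8.499 in control. The Dex changes of 0.01, 0.05 and -0.04 at 2 h, 24 h and 6 d were not called, and their 95% intervals ran from -0.43 to 0.45, from -0.38 to 0.49 and from -0.47 to 0.40. In the 20-array fit these intervals ran from -0.28 to 0.29, from -0.23 to 0.34 and from -0.32 to 0.25. After TNF Cry2 read 8.12, 8.46 and 7.98 at 2 h, 8.06, 8.21 and 7.75 at 24 h, and 7.95, 6.98 and 7.75 at 6 d. All 24 h and 6 d arrays lay below every control array. The changes were -0.29 at 2 h (limma adjusted p = 0.89), -0.47 at 24 h (0.221, and 0.0147 in the 20-array fit) and -0.92 ± 0.21 at 6 d (0.00678). Without TNF 6 d replicate 2 the 6 d fall was -0.63 ± 0.15 (adjusted p = 0.00531), and it was called whichever array was left out.

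Nr1d1, which encodes REV-ERB alpha, a haem-binding nuclear receptor that represses Arntl, was higher at 24 h than at 2 h of Dex and lower after 6 d of TNF. Its probe set (1426464_at) read 6.53, 6.59 and 6.13 after 2 h of Dex, 7.49, 7.46 and 7.48 after 24 h and 7.11, 6.97 and 7.10 after 6 d, against 6.98, 6.97 and 7.10 in control. The 2 h arrays lay below and the 24 h arrays above every control array, and the 6 d arrays lay within the control range or just above it. Against control the 2 h change was -0.60 (limma adjusted p = 0.159, and 0.0221 in the 20-array fit) and the 24 h change 0.46 (0.312 and 0.0654). Set directly against each other, 24 h was higher than 2 h by 1.06 ± 0.19, or 2.08-fold (limma adjusted p = 0.00274), whichever array was left out. After 6 d of TNF Nr1d1 read 6.84, 5.94 and 6.17, all below control, and the fall was -0.70 (limma adjusted p = 0.0214). In the 20-array fit it was -0.51 (adjusted p = 0.0492), and it was not called without control replicate 1, 2 or 3 (up to 0.0747). At 2 h and 24 h of TNF the values of 6.89 to 7.25 and 6.73 to 7.19 overlapped control.

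Nr1d2, which encodes REV-ERB beta, was not called in any of the 6 comparisons with control. Its probe set (1416958_at) lay between 10.32 and 10.86 on all 20 arrays other than TNF 6 d replicate 2, which read 7.92. The change after 6 d of TNF was -0.90 over all arrays (limma adjusted p = 0.145) and -0.03 in the 20-array fit (0.899). In that fit the other changes ran from -0.12 at 2 h of Dex to 0.22 at 24 h of Dex. The 95% interval of the Dex 24 h change reached from -0.69 to 1.14 in the fit of all arrays and from -0.01 to 0.46 in the 20-array fit.

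Dbp, a D-box activator and a common readout of the clock's output, was lower at 2 h of TNF and, in the 20-array fit, at 2 h of Dex. Its probe set (1438211_s_at) read 10.25, 10.11 and 10.04 after 2 h of Dex, and 9.88, 10.51 and 9.96 after 2 h of TNF, against 11.14, 11.24 and 11.25 in control. All 6 treated arrays lay below every control array. The TNF change was -1.09 ± 0.28, a 2.13-fold fall (limma adjusted p = 0.0323, and 9.10e-06 in the 20-array fit). The Dex change was -1.08 ± 0.28 (limma adjusted p = 0.0512, and 1.63e-05 in the 20-array fit). Dex and TNF differed by 0.02 at 2 h, with a 95% interval of -0.58 to 0.61, and of -0.28 to 0.31 in the 20-array fit. The TNF call was lost without control replicate 1, 2 or 3 or TNF 2 h replicate 1 or 3, with an adjusted p up to 0.163.

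At 24 h Dbp read 11.15, 11.12 and 10.95 under Dex and 11.14, 11.27 and 11.08 under TNF, overlapping control in both cases. The rise between 2 h and 24 h of TNF was 1.04 (limma adjusted p = 0.0335) and that between 2 h and 24 h of Dex 0.94 (0.0829, and 8.00e-05 in the 20-array fit). At 6 d of Dex Dbp read 10.16, 10.53 and 10.56, again below every control array, with a change of -0.79 (limma adjusted p = 0.105, and 0.000241 in the 20-array fit). At 6 d of TNF it read 11.37, 9.82 and 11.16, where the middle value is the array that stood apart, and in the 20-array fit the change was 0.06 (0.845). A second Dbp probe set (1418174_at), also above 5.34 on 21 arrays, changed by -1.03, -0.18 and -1.11 at 2 h, 24 h and 6 d of Dex and by -1.13 and -0.15 at 2 h and 24 h of TNF. With both Dbp probe sets averaged, the change at 2 h of TNF was -1.11 and was not called (adjusted p = 0.208).

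Nfil3, the D-box repressor, gave the largest rise of the 10 regulators at 2 h of Dex. Its probe set (1418932_at) read 10.01, 9.91 and 9.82, against 7.75, 7.80 and 7.97 in control. The lowest Dex 2 h array stood far above every array of any other group. The rise was 2.07 ± 0.28, or 4.21-fold (limma adjusted p = 0.000131). At 24 h of Dex Nfil3 read 8.13, 8.18 and 7.73, overlapping control, and it was lower than at 2 h by -1.90 (limma adjusted p = 0.000409). At 6 d of Dex it read 8.57, 8.83 and 8.25, above every control array, with a change of 0.71 (limma adjusted p = 0.166, and 0.00188 in the 20-array fit). TNF at 2 h and 24 h gave changes of 0.19 and 0.25, neither called. At 6 d of TNF Nfil3 read 7.42, 6.00 and 7.41, below every control array. That change was -0.90 over all arrays (limma adjusted p = 0.0411) and -0.43 in the 20-array fit (0.0937), so the call was lost without TNF 6 d replicate 2. It was lost in all without 13 different single arrays, with an adjusted p up to 0.12 without control replicate 3.

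Bhlhe40, the E-box repressor also known as DEC1, had the largest fall under Dex. Its probe set (1418025_at) read 9.57, 9.13 and 9.32 after 2 h of Dex, 10.62, 10.63 and 10.05 after 24 h and 9.80, 9.98 and 9.58 after 6 d, against 11.54, 11.47 and 11.67 in control. All 9 Dex arrays lay below every control array, with the 24 h arrays above the 2 h and 6 d arrays. The fall was -2.22 ± 0.43, or 4.65-fold, at 2 h (limma adjusted p = 0.00541) and -1.77, or 3.41-fold, at 6 d (0.0136). At 24 h it was -1.12 (limma adjusted p = 0.239, and 0.000181 in the 20-array fit). In the 20-array fit the limma adjusted p was 2.65e-08 at 2 h and 3.30e-07 at 6 d. With TNF 6 d replicate 2 kept, the 6 d call was lost without control replicate 3 or Dex 6 d replicate 3 (up to 0.0605). The 2 h call held whichever array was left out.

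Under TNF Bhlhe40 read 11.08, 11.90 and 11.49 at 2 h and 11.06, 11.36 and 11.43 at 24 h, with changes of -0.07 and -0.28 that were not called. After 6 d of TNF it read 10.59, 8.10 and 10.46, below every control array. The fall was -1.84 over all arrays (limma adjusted p = 0.0086) and -1.04, or 2.05-fold, in the 20-array fit (0.000974). Bhlhe40 was also lower at 6 d than at 24 h of TNF, by -1.56 (adjusted p = 0.0397) and by -0.76 in the 20-array fit (0.023).

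**Figure D2:**
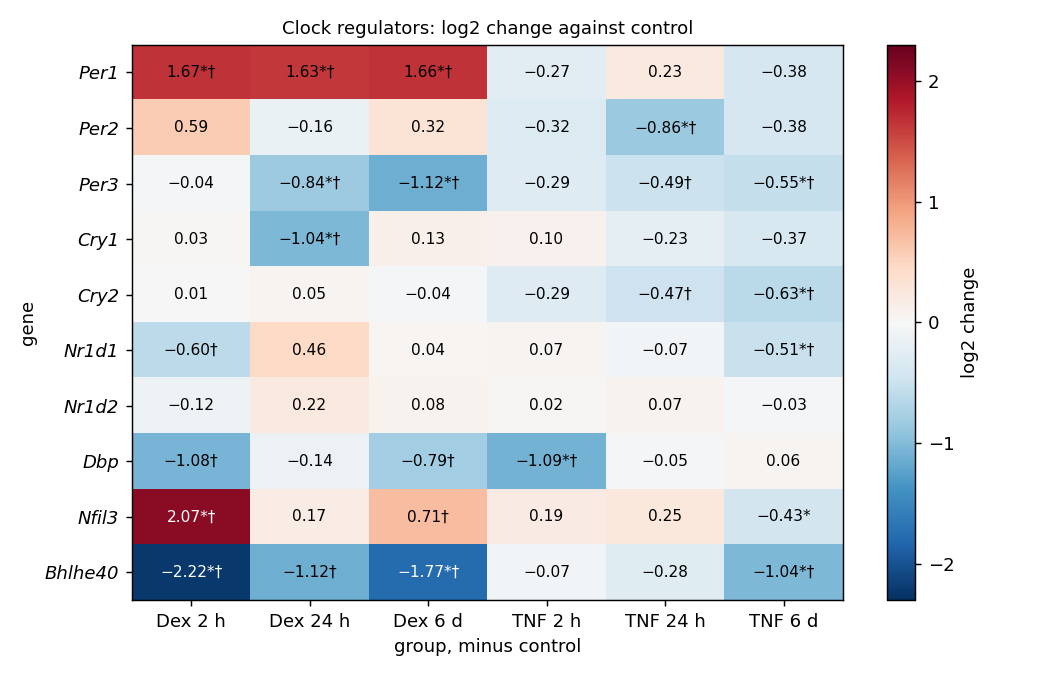
Log2 change against control (colour scale and printed values, from the 20-array fit) of the 10 regulators (rows) in the 6 treated groups (columns), where an asterisk marks a call with all 21 arrays and a dagger a call in the 20-array fit. Per1 is higher at all 3 Dex times (1.67, 1.63 and 1.66), Bhlhe40 is lower at all 3 (-2.22, -1.12 and -1.77), and no TNF cell with a mark is positive.

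Dex and TNF were set against each other at each time, which leaves out the 0 h control. At 2 h 5 of the 10 regulators were called beside 5.97% of all tested genes, and 5 beside 14.8% in the 20-array fit. Per1 was higher under Dex by 1.93 ± 0.24 (limma adjusted p = 1.37e-05), Nfil3 by 1.89 (0.00015) and Per2 by 0.91 (0.00941). Bhlhe40 was lower under Dex by -2.15 (limma adjusted p = 0.00317) and Nr1d1 by -0.67 (0.0462). The Nr1d1 call was lost without 16 different single arrays, most of all Dex 2 h replicate 3 (0.272), and the Per2 call without TNF 2 h replicate 1 or 3 (up to 0.0684). In the 20-array fit the limma adjusted p was 0.00525 for Nr1d1 and 0.000851 for Per2. The differences of Per3 (0.25), Cry1 (-0.07), Cry2 (0.30), Nr1d2 (-0.13) and Dbp (0.02) were not called. TNF 2 h replicate 2, an array with a 3' to 5' gap of 0.74, read highest of its group for all 10 regulators, and the part of that gap in these values was not tested.

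At 24 h 3 regulators were called between the agents beside 13.5% of all genes, and 6 beside 33.0% in the 20-array fit. Per1 was higher under Dex by 1.41 (limma adjusted p = 0.000316) and Per2 by 0.70 (0.0308), while Cry1 was lower by -0.81 (0.0029). The Per2 call was lost without any of the 3 Dex arrays or TNF 24 h replicate 1 or 3 (up to 0.113). In the 20-array fit Per2 had a limma adjusted p of 0.0043. The 20-array fit added Cry2 (0.52, limma adjusted p = 0.00515), Nr1d1 (0.53, 0.0147) and Bhlhe40 (-0.85, 0.00115). Per3 (-0.35), Nr1d2 (0.15), Dbp (-0.09) and Nfil3 (-0.07) were called in neither fit.

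At 6 d 6 regulators were called beside 23.7% of all genes, all 6 higher under Dex, where 15.9% of all genes were. The 20-array fit gave 9 beside 30.1%. Per1 differed by 2.35 (limma adjusted p = 1.10e-06) and by 2.04 in the 20-array fit (4.32e-08). In the same order of fits Nfil3 differed by 1.61 and 1.13, Per2 by 0.89 and 0.70, Cry2 by 0.88 and 0.59, Nr1d1 by 0.74 and 0.55, and Cry1 by 0.59 and 0.49. The Cry1 call was lost without Dex 6 d replicate 2 (0.114), the array with a 3' to 5' gap of 0.78. In the 20-array fit Per3 (-0.57, limma adjusted p = 0.0121), Dbp (-0.85, 0.000276) and Bhlhe40 (-0.73, 0.00951) were lower under Dex. Over all arrays the Bhlhe40 difference was 0.07 (adjusted p = 0.91), so its direction at 6 d rests on whether TNF 6 d replicate 2 is included. Nr1d2 was called in neither fit (0.98 with all arrays, and 0.11 in the 20-array fit).

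**Figure D3:**
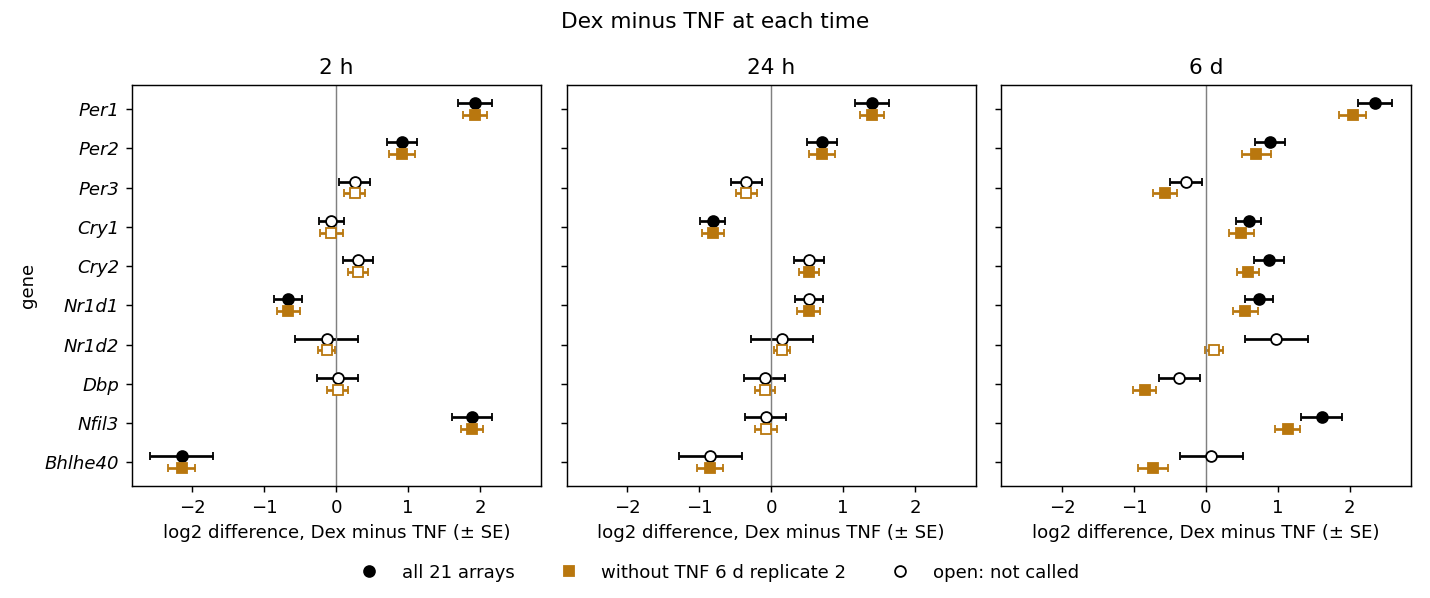
Log2 difference of Dex minus TNF (horizontal axes, with SE) for the 10 regulators (rows) at 2 h, 24 h and 6 d (panels), from all 21 arrays (black circles) and without TNF 6 d replicate 2 (ochre squares), with filled symbols for called differences. Per1 lies to the right of 0 in all panels (1.93, 1.41 and 2.35 with all arrays), and Bhlhe40 at 6 d moves from 0.07 to -0.73 when that array is left out.

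Neighbouring times of the same agent were also compared. With samples only at 2 h, 24 h and 6 d, these differences cannot show how long a response lasted. Nor can they show whether levels rose and fell in between. Between 24 h and 2 h of Dex 4 regulators were called beside 3.62% of all genes, and 7 beside 13.5% in the 20-array fit. Besides Nr1d1, Nfil3 and Cry1, given above, Per3 was lower at 24 h by -0.80 (limma adjusted p = 0.0483). That call was lost without 17 different single arrays, up to 0.183 without Dex 24 h replicate 2. In the 20-array fit its limma adjusted p was 0.000624. The 20-array fit added Per2 (-0.75), Dbp (0.94) and Bhlhe40 (1.09), while Per1 (-0.04), Cry2 (0.05) and Nr1d2 (0.34) were called in neither. Between 6 d and 24 h of Dex 1 was called, Cry1, beside 0.683% of all genes, and 3 beside 4.5% in the 20-array fit, which added Dbp (-0.65) and Bhlhe40 (-0.64). The other differences of that step were 0.03 for Per1, 0.47 for Per2, -0.28 for Per3, -0.09 for Cry2, -0.42 for Nr1d1, -0.15 for Nr1d2 and 0.54 for Nfil3, none called.

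Between 24 h and 2 h of TNF 1 regulator was called, Dbp, beside 5.69% of all genes, and 3 beside 22.1% in the 20-array fit, which added Per1 (0.49) and Per2 (-0.54). The other 7 regulators differed by -0.20 (Per3), -0.33 (Cry1), -0.18 (Cry2), -0.14 (Nr1d1), 0.05 (Nr1d2), 0.06 (Nfil3) and -0.21 (Bhlhe40), none called. The Dbp call was lost without TNF 2 h replicate 1 or 3 or TNF 24 h replicate 1, 2 or 3 (up to 0.155). In the 20-array fit its limma adjusted p was 1.57e-05. Between 6 d and 24 h of TNF 3 were called beside 5.99% of all genes, all 3 lower, where 4.78% of all genes were. In the 20-array fit it was 3 beside 9.2%, all lower, where 5.09% were. These were Per1, Bhlhe40 and Nfil3, and Nfil3 differed by -1.15 (limma adjusted p = 0.0225) and by -0.67 in the 20-array fit (0.0171). The Nfil3 call was lost without TNF 24 h replicate 1, 2 or 3 (up to 0.0747), and the Bhlhe40 call without 15 different single arrays. The others were called in neither fit, with values over all arrays of 0.29 (Per2), -0.35 (Per3), -0.24 (Cry1), -0.45 (Cry2), -0.63 (Nr1d1), -0.98 (Nr1d2) and -0.37 (Dbp).

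The order of the group means differed from gene to gene. In the 20 arrays Per1 ran from Dex 2 h through Dex 6 d, Dex 24 h, TNF 24 h, control and TNF 2 h down to TNF 6 d, and the only neighbours whose arrays did not overlap were Dex 24 h and TNF 24 h. Bhlhe40 ran from control through TNF 2 h, TNF 24 h, TNF 6 d, Dex 24 h and Dex 6 d down to Dex 2 h. Its neighbours control and TNF 2 h, TNF 2 h and TNF 24 h, and TNF 6 d and Dex 24 h overlapped. Neighbouring groups of Cry2 and of Nr1d2 overlapped at all 6 steps, and those of Nfil3 at 3 of 6. The group means of Nfil3 spanned 2.50 log2 units, those of Bhlhe40 2.22, those of Per1 2.05 and those of Nr1d2 0.34.

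The rest of the clock was read from a list of 20 other clock genes, of which 14 were tested. Against control 1, 1 and 3 of the 14 were called after 2 h, 24 h and 6 d of Dex, beside 2.48%, 4.18% and 8.3% of all tested genes. After the same times of TNF it was 1, 2 and 3, beside 3.82%, 8.69% and 15.2%. The 20-array fit called 3, 3 and 7 under Dex, beside 7.12%, 13.2% and 24.0%, and 5, 6 and 3 under TNF, beside 10.7%, 25.6% and 20.5%. The activator Arntl was lower after 6 d of TNF by -1.04 (limma adjusted p = 0.0418), and by -0.50 in the 20-array fit (0.114), where it was not called. When another array of these groups was left out, its adjusted p reached 0.126. At the other 5 treated groups Arntl differed by -0.56, -0.42 and 0.04 (Dex 2 h, 24 h and 6 d) and by -0.27 and -0.35 (TNF 2 h and 24 h), none called. Its partner Clock was not called against control with all arrays, with values of 0.08, 0.17 and 0.40 under Dex and 0.31, -0.42 and -1.05 under TNF in the same order of times, the last being -0.32 in the 20-array fit. That fit called Clock higher at 6 d of Dex (limma adjusted p = 0.0114) and lower at 24 h of TNF (0.00754). Ciart, which encodes a repressor of CLOCK and BMAL1, was higher than control at 2 h of Dex by 0.89 (limma adjusted p = 0.00299) and lower at 6 d by -0.73 (0.00678). Tef, a D-box activator related to Dbp, was lower after 6 d of TNF by -0.54 (limma adjusted p = 0.0281). Leaving out 1 array of the groups compared raised the limma adjusted p to as much as 0.113 for Tef. For Ciart at 6 d of Dex it reached 0.052, and for Ciart at 2 h of Dex 0.025.

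Noct, which encodes the rhythmic phosphatase nocturnin, moved in opposite directions with time under TNF. It was higher than control at 2 h by 1.55 (limma adjusted p = 0.000688) and lower at 24 h and 6 d by -1.26 (0.00284) and -1.86 (0.000154), the last being -1.47 in the 20-array fit. Under Dex it was lower at 6 d by -0.90 (limma adjusted p = 0.035), and its values of -0.83 at 2 h and -0.83 at 24 h were called in the 20-array fit (0.000939 and 0.000617). The Noct call at 6 d of Dex was lost without at least 1 array of the groups compared, with an adjusted p up to 0.166. Under TNF the Noct calls held in such fits, at 0.0191 or below. Timeless, whose mammalian product acts mainly in DNA replication, was lower at 24 h and 6 d of Dex by -0.65 and -0.72, and higher at 24 h of TNF by 0.67. In the 20-array fit it was also called at 2 h of Dex (-0.62), 2 h of TNF (-0.41) and 6 d of TNF (0.43). The Timeless calls at 24 h were each lost without at least 1 array of the groups compared. The limma adjusted p then reached 0.133 for Dex and 0.0673 for TNF. For Dex at 6 d it stayed at or below 0.0435. Between the agents the list gave 3, 2 and 5 calls at 2 h, 24 h and 6 d, beside 5.97%, 13.5% and 23.7% of all genes, and 3, 6 and 5 in the 20-array fit, beside 14.8%, 33.0% and 30.1%. At 2 h these were Noct (-2.37), Ciart (1.33) and Usp2 (0.73), at 24 h Timeless (-1.32) and Rora (0.73). The 20-array fit added Clock (0.59), Tef (0.37), Csnk1e (0.67) and Noct (0.43) at 24 h. Csnk1e read 9.12, 9.12 and 8.40 at 24 h of TNF, the last on replicate 3, whose 3' to 5' gap was 0.68. A second Csnk1e probe set (1417175_at) lay above 5.34 on 21 arrays. At 24 h it read 8.48, 8.52 and 8.51 under Dex and 8.37, 8.32 and 8.61 under TNF, and these groups overlapped. Arntl differed by -0.30 at 2 h and -0.07 at 24 h and Clock by -0.23 at 2 h, none called. At 6 d they were Clock (1.45, and 0.72 in the 20-array fit), Arntl (1.08, and 0.53, where it was no longer called, with a limma adjusted p of 0.068), Noct (0.96, and 0.57), Timeless (-0.91, and -1.15) and Ciart (-0.51). The 20-array fit added Fbxw11 (0.28). Between times, Ciart was lower at 24 h than at 2 h of Dex by -1.03 (limma adjusted p = 0.000652). At 24 h against 2 h of TNF Timeless was higher by 1.07 and Noct lower by -2.81. Arntl and Clock were called in none of the 4 steps with all arrays: Arntl differed by 0.14 and 0.46 in the steps of Dex and -0.09 and -0.69 in those of TNF, and Clock by 0.09, 0.23, -0.73 and -0.63 in the same order. The 20-array fit called Clock lower at 24 h than at 2 h of TNF (limma adjusted p = 6.29e-05).

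**Figure D4:**
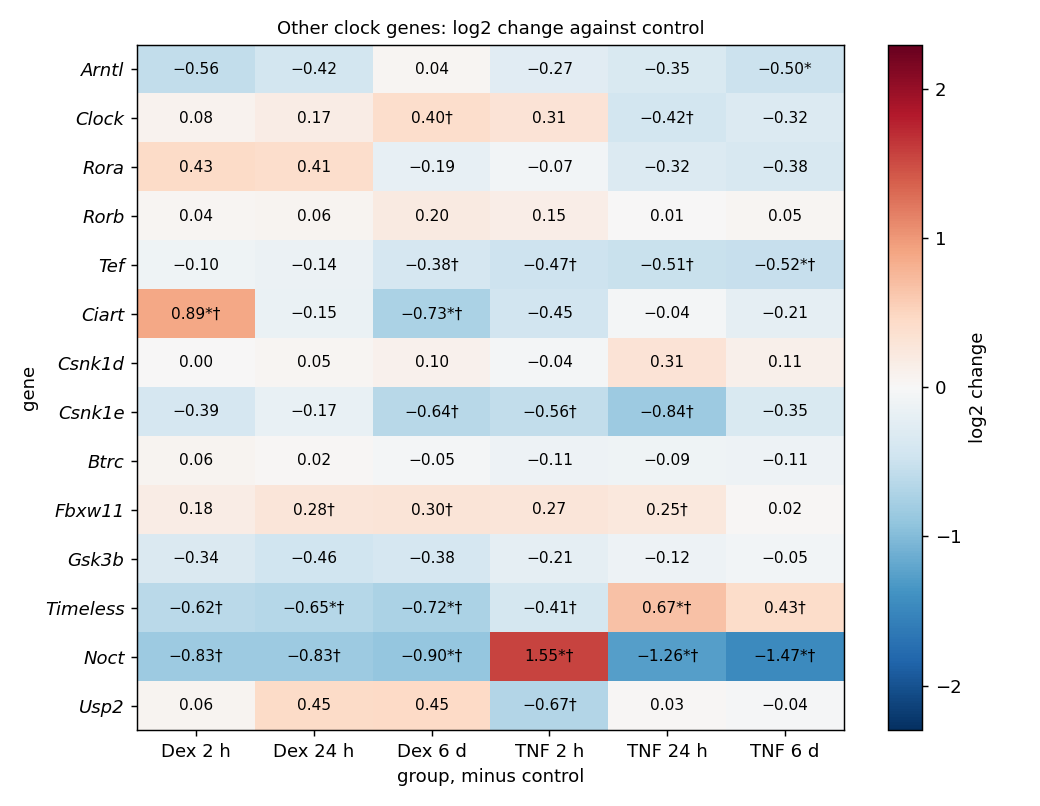
Log2 change against control (colour scale and printed values, from the 20-array fit) of the 14 other clock genes tested (rows) in the 6 treated groups (columns), with an asterisk for a call with all 21 arrays and a dagger for a call in the 20-array fit. Noct is at 1.55 after 2 h of TNF and at -1.26 and -1.47 after 24 h and 6 d.

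For each regulator the tested genes with the most similar profile were ranked by Pearson's r over the 20 arrays, which fall into 7 groups, so that r mainly follows the group means. Per1 was most like Map3k6 (r = 0.972), Zbtb16 (0.965) and Gm11827 (0.962). Nfil3 was most like Wee1 (0.936), which encodes a kinase that restrains entry into mitosis, and Bhlhe40 was most like Spry1 (0.901), an inhibitor of growth factor signalling. Per3 was most like Sulf2 (0.929), Cry2 like Mgme1 (0.927), Per2 like Tpgs2 (0.91) and Dbp like G0s2 (0.881), an inhibitor of the lipase ATGL. The closest genes to Cry1, Nr1d1 and Nr1d2 reached r of 0.827 (Khdrbs1), 0.827 (Tdrp) and 0.81 (Bcl7a).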

How the data were processed

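Total RNA of 21 cultures was hybridised as biotinylated cRNA. Per the submitters' processing notes the authors normalised the arrays by RMA, no version given, and the authors' deposited values, which reach 15.06, were taken as log2 expression. They cover 45101 probe sets, of which 34958 list 1 gene, 932 several and 9211 none. Only those with 1 gene were used, and symbols of 34754 were updated through the Entrez identifier. Precision is limited by the number of arrays.

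Group means were fitted to all arrays in 1 limma model (limma 3.58.1 in R 4.3.3; tables read with data.table, version 1.17.8). The model had 14 residual degrees of freedom, used eBayes with a trend, and ran over 12156 genes and in 13 comparisons. Calls needed an adjusted p (Benjamini-Hochberg, two-sided) below 0.05. The smallest two-sided p of an exact permutation test with 3 arrays a group is 0.1. P-values measure the spread between these cultures. On data simulated for TNF 24 h against control over 12156 genes, 6% of changes of 0.5, 46% of 1, 88% of 2 and 100% of 4 (log2) were recovered. Of the genes called there, 0.826% were false calls. Each simulated gene had the same normal spread on all arrays, so no simulated array stood apart.

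The 10 regulators, the list of other clock genes and the marker lists were chosen with earlier results of these data known. Every regulator is named in every comparison. Of the other clock genes, up to 4 called ones with the largest change in a comparison against control or of Dex against TNF are named, and Arntl and Clock in every comparison. Some, not all, of the other clock genes that only the 20-array fit called were named after their values were seen. So were those called between times. For likeness the 3 highest r were ranked. Same-numbered replicates deviated together (every correlation above 0.1) in 2 comparisons. For Dex 24 h and control they ran from 0.233 to 0.447, and for Dex 24 h and TNF 24 h from 0.207 to 0.27. A replicate block in the fit of all groups changed no regulator's call there. Alternatives were each array left out, no and a stricter filter, averaged probe sets, median centring, cyclic loess, array weights, the replicate block and fits of only the 2 groups compared. The combination of the last pair was added after seeing the data. Promoter sequences are from RefSeq (GRCm38.p6). A genome was not used here.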

Additional observations from a re-analysis of the deposited data

Results flagged for a closer look

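These are differences between treatments or times that passed the limma threshold when the difference itself was tested, with all 21 arrays. They are given as log2 values, Dex minus TNF or later minus earlier time. At 2 h Dex and TNF differed in Per1 (1.93), Per2 (0.91), Nr1d1 (-0.67), Nfil3 (1.89) and Bhlhe40 (-2.15). At 24 h they differed in Per1 (1.41), Per2 (0.70) and Cry1 (-0.81). At 6 d they differed in Per1 (2.35), Per2 (0.89), Cry1 (0.59), Cry2 (0.88), Nr1d1 (0.74) and Nfil3 (1.61). Between 24 h and 2 h of Dex, Per3 (-0.80), Cry1 (-1.07), Nr1d1 (1.06) and Nfil3 (-1.90) differed. Between 6 d and 24 h of Dex it was Cry1 (1.16). Between 24 h and 2 h of TNF it was Dbp (1.04), and between 6 d and 24 h of TNF it was Per1 (-0.91), Nfil3 (-1.15) and Bhlhe40 (-1.56). Groups of 3 arrays are too small for a check on single outlying values.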

How the results depend on the processing

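Of 39 regulator calls with all arrays in 13 comparisons, 23 held whichever array was left out and 16 were lost without at least 1. The number of regulators called without 1 array ran from 3 to 5 for Dex 2 h, 2 to 4 for Dex 24 h, 2 to 5 for Dex 6 d, 0 to 1 for TNF 2 h, 0 to 3 for TNF 24 h and 2 to 9 for TNF 6 d, all against control. It ran from 3 to 5, 2 to 6 and 5 to 9 for Dex against TNF at 2 h, 24 h and 6 d. Between times it ran from 3 to 7 (Dex 24 h against 2 h), 1 to 3 (Dex 6 d against 24 h), 0 to 3 (TNF 24 h against 2 h) and 0 to 6 (TNF 6 d against 24 h). The shares of all genes called in each of these fits are not given here, so the ranges show only how far the counts moved. One difference that was called under some setting turned its direction, Bhlhe40 in Dex 6 d against TNF 6 d: 0.07 with all arrays, -0.73 with array weights, and from -0.73 (without TNF 6 d replicate 2) to 0.51 (without TNF 6 d replicate 1) when 1 array was left out. Other values changed sign without a call under either sign, such as Dbp in TNF 6 d against control, -0.42 with all arrays and 0.06 without TNF 6 d replicate 2. Array weights gave 6 calls for Dex 2 h, 7 for Dex 24 h, 6 for Dex 6 d, 5 for TNF 2 h and 6 for TNF 24 h against control, 7 for Dex against TNF at 24 h, and 8, 9, 6 and 7 for the 4 steps in time. Of all 12156 tested genes array weights called 2219, 5309, 5528, 4951 and 6665 in those comparisons against control. They called 7671 for Dex against TNF at 24 h, and 4267, 3875, 6632 and 4071 for the steps in time. Cyclic loess gave 5 for Dex 2 h, 5 for Dex 6 d and 3 for TNF 24 h against control, 6 for Dex against TNF at 24 h, and 7 and 2 for the 2 steps in time of Dex. In the same order it called 474, 1525, 1669, 2412, 759 and 163 of all 12156 genes. Averaged probe sets gave 0 for TNF 2 h and 2 for TNF 24 h against control, and 0 between 24 h and 2 h of TNF. In the same order 607, 1171 and 831 of 11208 genes were called. The replicate block gave 0 for TNF 2 h, where Dbp had an adjusted p of 0.0525, and elsewhere stayed within 1.5 times the count with no block. For TNF 2 h it called 476 of all 12156 genes. Fits of only the 2 groups compared gave 6, 5 and 5 for Dex 2 h, 24 h and 6 d and 0 for TNF 6 d against control, 6 and 1 for Dex against TNF at 24 h and 6 d, 8 and 3 for the steps of Dex and 0 between 6 d and 24 h of TNF. Of all 12156 genes these fits called 874, 1860, 2421, 29, 3368, 221, 2929, 596 and 2 in that order. Those fits with a replicate block gave 6, 5, 5, 0, 6, 0, 8, 4 and 0 in the same order, and 2 between 24 h and 2 h of TNF. They called 1007, 2897, 1948, 2, 3571, 16, 3487, 611 and 0 of all 12156 genes in that order, and 1542 between 24 h and 2 h of TNF. The causes were not tested. The estimate of array weights did not reach its convergence tolerance. TNF 6 d replicate 2 widens the shared spread: the SE of the Bhlhe40 change at 2 h of Dex was 0.43 with it and 0.18 without it. The TNF dose and the vehicle are not given in the labels.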
